A study of Mus musculus with 17 samples.

Results

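The genes described here encode 5 chains of the fibril-forming collagens I, III and V (Col1a1, Col1a2, Col3a1, Col5a1 and Col5a2), the 3 main chains of collagen VI (Col6a1, Col6a2 and Col6a3), the collagen-binding protein SPARC (Sparc) and the crosslinking enzyme lysyl oxidase (Lox). They were followed in mouse pancreatic islets during the days after isolation. Members were the probe sets whose only gene symbol in the platform annotation is 1 of these 10 names, which gave 22 probe sets of the 45037 tested, and 10 of the 18193 genes that had a probe set with a single symbol. Islets are small clusters of endocrine cells threaded with capillaries and sparse connective tissue. The C57BL/6 islets were cultured in F12K medium with 10% FBS and received no treatment. They were harvested at 0 h (n = 5 arrays), 24 h (n = 6) and 48 h (n = 6). Each of 6 independent batches pooled the islets of 4 mice and was divided over the times, so that a replicate number names the same pool at every time, and 1 pool, batch 5, enters here at 24 h and 48 h alone.

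Collagen I is built from COL1A1 and COL1A2 chains, collagen III from COL3A1 alone, and collagen V from COL5A1 with COL5A2 as its commonest partner. Collagen V lies inside fibrils of collagen I and limits their width. Collagen VI forms beaded filaments beside the basement membrane from COL6A1, COL6A2 and a longer COL6A3 chain. In pancreas these collagen genes are known chiefly from fibroblasts, stellate cells and pericytes, and not from beta cells. In bulk islets, fewer cells of a type and less RNA per cell cannot be told apart.

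Col3a1 and Col1a2 followed the same course in culture. Col6a3 was also lower at 24 h, but its 48 h arrays lay within its 0 h range. The promoters of these 3 members are shown. They are RefSeq sequences on GRCm38.p6, running from 250 bases before to 50 bases after the annotated start of the gene, and capitals mark the motifs found. Col3a1 lies at chr1:45311288-45311587 on the plus strand, Col1a2 at chr6:4505368-4505667 on the plus strand and Col6a3 at chr1:90843922-90844221 on the minus strand.
Col3a1: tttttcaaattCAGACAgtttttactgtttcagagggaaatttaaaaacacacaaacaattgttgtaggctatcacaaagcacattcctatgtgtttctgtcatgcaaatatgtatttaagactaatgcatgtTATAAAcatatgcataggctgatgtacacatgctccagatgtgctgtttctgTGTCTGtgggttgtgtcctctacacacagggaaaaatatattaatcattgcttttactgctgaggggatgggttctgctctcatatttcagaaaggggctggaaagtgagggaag
Col1a2: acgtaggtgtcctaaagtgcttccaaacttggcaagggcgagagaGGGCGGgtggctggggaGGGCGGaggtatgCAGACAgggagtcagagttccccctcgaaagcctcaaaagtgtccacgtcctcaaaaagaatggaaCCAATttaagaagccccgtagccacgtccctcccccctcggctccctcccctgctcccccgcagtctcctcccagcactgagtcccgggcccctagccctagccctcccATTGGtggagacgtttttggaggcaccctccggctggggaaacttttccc
Col6a3: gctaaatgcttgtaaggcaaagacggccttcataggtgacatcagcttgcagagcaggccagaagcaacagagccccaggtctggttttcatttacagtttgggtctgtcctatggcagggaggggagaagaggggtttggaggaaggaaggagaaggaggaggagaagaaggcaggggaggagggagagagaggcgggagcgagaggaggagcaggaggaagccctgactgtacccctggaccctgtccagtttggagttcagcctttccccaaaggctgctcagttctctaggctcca

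Both strands were searched for 5 short motifs. They were the TATA box, spelled TATAAA, the CCAAT box, spelled by its name, and the AP-1 motif, spelled TGANTCA, as well as the GC box with the letters GGGCGG and the SMAD-binding element with the letters CAGACA. No matches overlapped each other in the 3 promoters. Col3a1 held TATAAA at positions -117 to -112 and CAGACA at -239 to -234 and, on the reverse strand, -65 to -60, counted from the annotated start. Col1a2 held CCAAT at -109 to -105 and, on the reverse strand, at 1 to 5. It also had GGGCGG at -205 to -200 and -188 to -183, and CAGACA at -175 to -170. Col6a3 held none of these letters in its window. Among 32851 promoters of the same length in the RefSeq table, 13.6% held the TATA box, 37.4% the CCAAT box, 7.81% the AP-1 motif, 35.7% the GC box and 21.0% the SMAD-binding element. GC content was 37.7% for Col3a1 and 56.3% for Col6a3. In all, 7 of the 10 members matched 8 promoter entries. In the RefSeq gene table Col3a1 and Col5a2 are direct neighbours on chromosome 1.

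The deposited values are RMA levels on a log2 scale, in which background is subtracted, arrays are quantile-normalized and the probes of a probe set are summarised. The median level of an array lay between 3.47 and 3.57, and pairs of arrays correlated at 0.976 to 0.995 over probe sets. The arrays of 0 h replicate 3 and 24 h replicate 5 had the lowest median correlation with the others of their time, at 0.987 and 0.988. No detection call accompanied the values, so detection cannot be judged for a level near or under 3.52, the median of the table. Of the 22 member probe sets, 10 had a mean level above that median and 12 under it, and 8 were under it on every array. Those above it belonged to 7 genes. Col1a1, Col6a1 and Lox had none above it. Where a gene had several probe sets, the one with the highest mean represents it, and each difference below is a log2 difference with limma's standard error (SE) and a p adjusted by Benjamini-Hochberg over all 45037 probe sets.

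**Figure D1:**
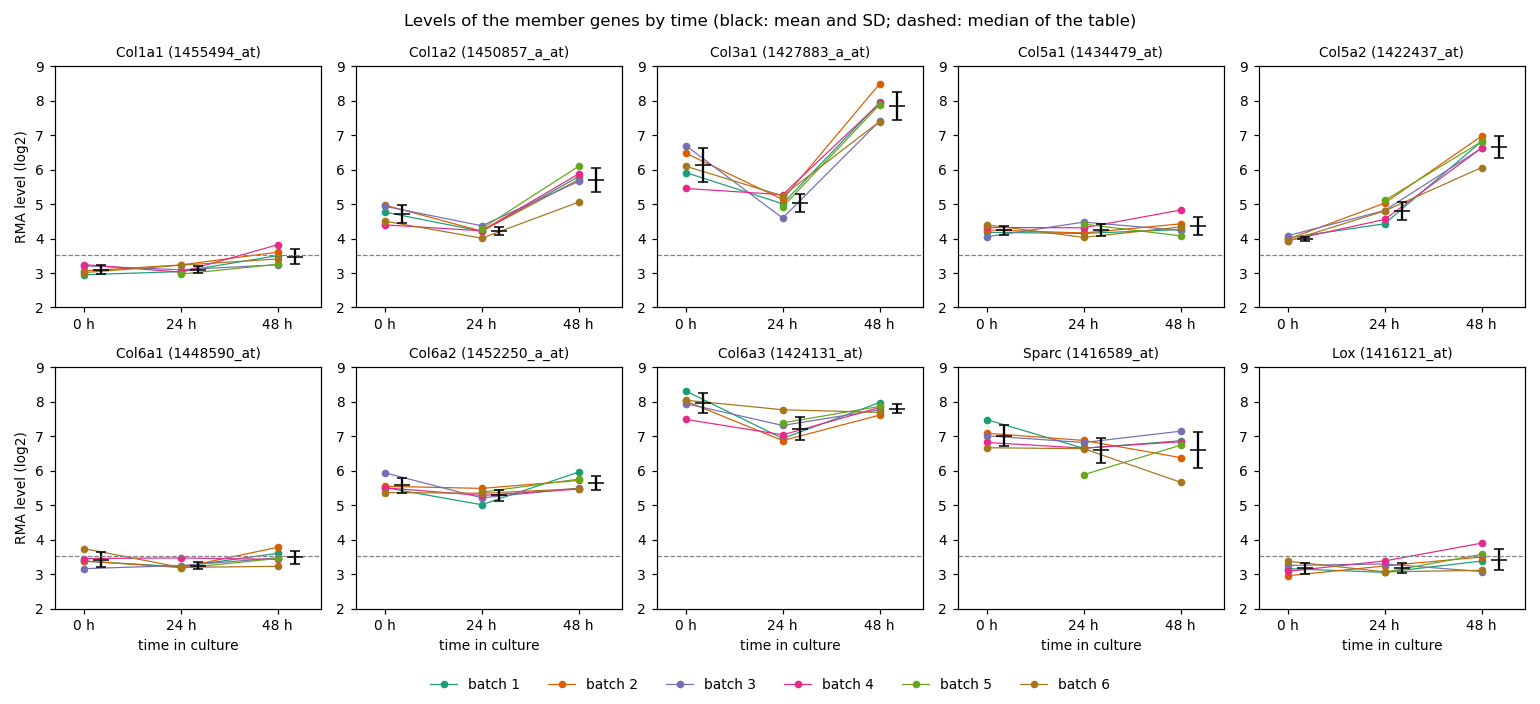
RMA level (log2, vertical axis) of the representing probe set of each gene against time in culture, with 1 line per batch, black marks for the mean and SD of each time, and a dashed line at the table's median of 3.52. Col3a1 and Col1a2 are lowest at 24 h and highest at 48 h, Col5a2 climbs at each time, and Col6a3 is lower at 24 h than at 0 h.

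Across the 3 comparisons, the representing probe sets of Col3a1 and Col1a2 were lower after 24 h of culture and then above their starting level at 48 h. That of Col5a2 was higher at both later times, and that of Col6a3 was lower at 24 h. The Col1a2 call at 24 h was lost in 8 of 17 fits without 1 array. Second probe sets of Col3a1, Col1a2 and Col5a2 passed at 48 h but not at 24 h, each against 0 h. In 24 h islets against 0 h islets, 4 of the 22 member probe sets passed the test (adjusted p under 0.05), 1 higher and 3 lower, where 8.58% of all probe sets passed, 3.86% higher and 4.72% lower. In 48 h islets against 0 h islets, 8 of 22 passed, all higher, against a background of 8.47% (4.67% higher and 3.80% lower). At an unadjusted p under 0.05, limma also gave 8 higher and 0 lower there. Detection cannot be judged for those of the 8 with means under the table's median. They were 1455494_at of Col1a1, 1423110_at of Col1a2, 1427884_at of Col3a1, 1416740_at of Col5a1 and 1450625_at of Col5a2. Those of Col1a2, Col3a1 and Col5a2 were second probe sets of genes whose representing probe set also passed. In 48 h islets against 24 h islets, 5 of 22 passed, all higher, where 0.444% of all probe sets passed (0.266% higher and 0.178% lower). At an unadjusted p under 0.05 this comparison gave 11 member probe sets, all 11 higher. The share of all probe sets at an unadjusted p under 0.05 was not counted. Such limma counts, above and below, therefore have no background beside them and are not read as a result. Of the 5, 1427884_at and 1450625_at had means under the table's median. Counted by the 10 representing probe sets, 4, 4 and 3 genes passed, against backgrounds of 12.1%, 11.7% and 0.759% of the 18193 genes. Each pair of comparisons shares the arrays of 1 time, so their differences are not independent of each other. The median difference of the member probe sets was -0.06, 0.07 and 0.20 in the order of the comparisons above, and that of all probe sets was -0.0064, -0.014 and -0.0030.

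The arrays of the compared times did not overlap for 3 member probe sets at 24 h against 0 h, where 6.28% of all probe sets did so, for 5 at 48 h against 0 h (background 6.60%) and for 6 at 48 h against 24 h (background 1.11%). The 3 were those of Col1a2, Col3a1 and Col5a2 with the highest level. The 5 were these 3, the second probe set of Col5a2 and 1416740_at of Col5a1. The 6 were both probe sets of Col3a1, both of Col5a2, 1450857_a_at of Col1a2 and 1455494_at of Col1a1.

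**Figure D2:**
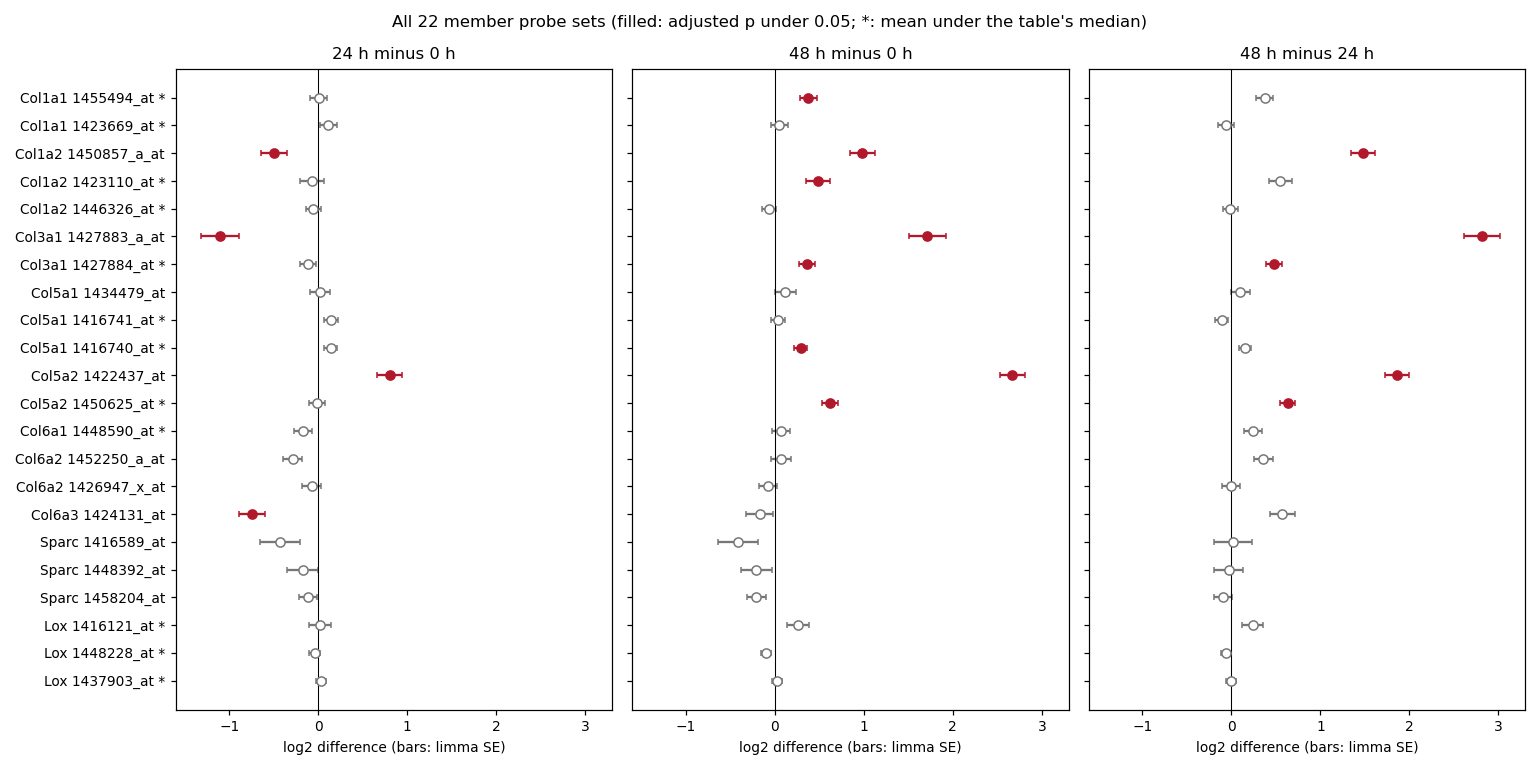
Log2 difference (horizontal axis, bars show limma's SE) of each of the 22 member probe sets in the 3 comparisons, filled where the adjusted p is under 0.05, with an asterisk at probe sets whose mean lies under the table's median. The filled points at 48 h against 0 h and at 48 h against 24 h are all to the right of 0, and 3 of the 4 at 24 h against 0 h are to its left.

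Col3a1, the chain of collagen III, moved furthest among the members between 24 h and 48 h. Its probe set 1427883_a_at stood at 5.92, 6.48, 6.70, 5.45 and 6.10 in 0 h replicates 1, 2, 3, 4 and 6. At 24 h the lowest, median and highest levels were 4.59, 5.07 and 5.27, and at 48 h they were 7.40, 7.91 and 8.49. Every 24 h array was thus under every 0 h array, and every 48 h array was above both other times. The level was 2.15-fold lower at 24 h than at 0 h (-1.10 ± 0.21, adjusted p = 0.00186), and was lower in 5 of 5 batches, by -2.10 to -0.18. At 48 h it was 3.28-fold higher than at 0 h (1.71 ± 0.21, adjusted p = 2.85e-05), with a rise in 5 of 5 batches. Against 24 h, the 48 h level was 7.04-fold higher (2.82 ± 0.20, adjusted p = 7.32e-07), and the 6 batches gave 2.16 to 3.36. That difference ranked 1 among the 45037 probe sets of the comparison, sorted by log2 difference.

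The other probe set of Col3a1, 1427884_at, was under the table median on all 17 arrays, at 2.08 to 2.54 at 0 h, 2.06 to 2.24 at 24 h and 2.39 to 2.94 at 48 h. Its differences were smaller, at -0.12 ± 0.09 for 24 h against 0 h (adjusted p = 0.573), 0.36 ± 0.09 for 48 h against 0 h (adjusted p = 0.0182) and 0.48 ± 0.09 for 48 h against 24 h (adjusted p = 0.0177). Both rises were seen in every batch, 5 of 5 and 6 of 6. Their calls were each lost in 1 of 17 fits without 1 array. Without 0 h replicate 6 the first was 0.31 (adjusted p = 0.0566), and without 48 h replicate 2 the other was 0.46 (adjusted p = 0.0549). Fitting only the arrays of the 2 times compared also lost the first call.

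Col5a2, a chain of collagen V, rose at both steps. Probe set 1422437_at read 4.02, 3.98, 4.08, 3.94 and 3.92 in 0 h replicates 1, 2, 3, 4 and 6. The lowest, median and highest levels were 4.43, 4.81 and 5.11 at 24 h and 6.06, 6.72 and 6.97 at 48 h. The arrays of each time lay apart from those of the others, and the 0 h arrays were close together. The rise was 1.74-fold at 24 h against 0 h (0.80 ± 0.14, adjusted p = 0.000791), and batches ranged between 0.41 and 1.05. It reached 6.35-fold at 48 h against 0 h (2.67 ± 0.14, adjusted p = 5.56e-10), which was the 12th highest log2 difference of that comparison. Between 48 h and 24 h it was 3.64-fold (1.86 ± 0.13, adjusted p = 7.32e-07), and ranked 2 behind Col3a1. The second probe set, 1450625_at, was under the table median on all 17 arrays, with 2.50 to 2.65 at 0 h, 2.48 to 2.67 at 24 h and 2.93 to 3.50 at 48 h. It differed by -0.01 ± 0.09 at 24 h against 0 h (adjusted p = 0.973) and rose by 0.62 ± 0.09 at 48 h against 0 h (adjusted p = 0.000189) and by 0.63 ± 0.09 at 48 h against 24 h (adjusted p = 0.00252). The early rise was therefore seen with 1 of the 2 probe sets.

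Col5a1, the chain that pairs with COL5A2 in collagen V, showed no such course in its highest probe set. Probe set 1434479_at had 4.18, 4.25, 4.05, 4.32 and 4.40 in 0 h replicates 1, 2, 3, 4 and 6. It had 4.03, 4.24 and 4.48 as lowest, median and highest levels at 24 h, and 4.08, 4.30 and 4.83 at 48 h. The 3 times overlapped, and the differences of 0.02 ± 0.11, 0.12 ± 0.11 and 0.10 ± 0.11 had adjusted p of 0.959, 0.616 and 0.776. Of the probe sets under the table's median, 1416740_at was higher at 48 h than at 0 h by 0.29 ± 0.07 (adjusted p = 0.0156), where the 48 h arrays had 2.89 to 3.24 and the 0 h arrays 2.70 to 2.89. Probe set 1416741_at, at 2.96 to 3.17, 2.98 to 3.37 and 2.86 to 3.22 at 0, 24 and 48 h, passed in no comparison.

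Col1a2, a chain of collagen I, followed the course of Col3a1 with smaller changes. On probe set 1450857_a_at, 0 h replicates 1, 2, 3, 4 and 6 had 4.77, 4.97, 4.94, 4.40 and 4.51. The 24 h arrays had 4.01, 4.22 and 4.37 as lowest, median and highest levels, and the 48 h arrays 5.06, 5.76 and 6.10. No 2 times overlapped, although the highest 24 h array was close to the lowest 0 h array. The fall at 24 h against 0 h was 1.41-fold (-0.50 ± 0.15, adjusted p = 0.0392), and the level was lower in 5 of 5 batches. This call was lost when 0 h replicate 1, 2 or 3 or 24 h replicate 1, 2, 4, 5 or 6 was left out, with an adjusted p of up to 0.107 and a difference of -0.43 without 0 h replicate 2. It was also lost without the 2 arrays that stood apart (-0.45, adjusted p = 0.114). With the batch as a block its adjusted p was 0.0103. At 48 h the level was 1.98-fold higher than at 0 h (0.99 ± 0.15, adjusted p = 0.000213) and 2.79-fold higher than at 24 h (1.48 ± 0.14, adjusted p = 3.05e-05, rank 6 of all probe sets).

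The second Col1a2 probe set, 1423110_at, was above the table's median on 1 array, with 2.31 to 2.88 at 0 h, 2.41 to 2.85 at 24 h and 2.77 to 3.54 at 48 h. It rose by 0.49 ± 0.13 at 48 h against 0 h (adjusted p = 0.0272), a call lost with the batch as a block (adjusted p = 0.0566) and without 0 h replicate 1 or 4 or 48 h replicate 2 or 4 (adjusted p up to 0.0898, without 0 h replicate 4, where the difference was 0.39). Fitting only the arrays of the 2 times compared also lost that call. At 48 h against 24 h the difference was 0.55 ± 0.13 (adjusted p = 0.0619). That difference passed the test without 0 h replicate 4, 24 h replicate 5, or 48 h replicate 3 or 5, with a lowest adjusted p of 0.0294 without 48 h replicate 5. It also passed without batch 5 and without the 2 arrays that stood apart. The same held with array weights, with a changed variance prior, with median centring and with quantile normalization repeated. The third, 1446326_at, stayed between 2.01 and 2.57 over all arrays and passed in no comparison.

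Col1a1, the partner of Col1a2 in collagen I, read low on this array. Probe set 1455494_at had 2.95, 3.06, 3.21, 3.24 and 3.01 in 0 h replicates 1, 2, 3, 4 and 6. Its lowest, median and highest levels were 2.97, 3.07 and 3.23 at 24 h and 3.24, 3.46 and 3.82 at 48 h, and 2 of the 17 arrays exceeded the table's median. The 48 h arrays lay above the 24 h arrays without overlap, whereas the 0 h and 24 h arrays covered nearly the same range. It rose 1.30-fold at 48 h against 0 h (0.38 ± 0.10, adjusted p = 0.0194), and without 0 h replicate 1 that difference was 0.34 (adjusted p = 0.0556). At 24 h against 0 h it differed by 0.00 ± 0.10 (adjusted p = 0.989), and at 48 h against 24 h by 0.37 ± 0.09 (adjusted p = 0.0893). Probe set 1423669_at, at 2.37 to 2.82, 2.56 to 2.93 and 2.37 to 2.83 at 0, 24 and 48 h, passed in no comparison.

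Col6a3, the longest chain of collagen VI, fell at 24 h. Its single probe set, 1424131_at, stood at 8.32, 8.02, 7.95, 7.49 and 8.05 in 0 h replicates 1, 2, 3, 4 and 6. It had 6.88, 7.18 and 7.77 as lowest, median and highest levels at 24 h, and 7.62, 7.80 and 7.98 at 48 h. The 24 h arrays lay under all but 1 of the 0 h arrays, and the 48 h arrays fell within the range of the 0 h arrays. It was 1.67-fold lower at 24 h than at 0 h (-0.74 ± 0.15, adjusted p = 0.00298), with 5 of 5 batches lower, by -1.38 to -0.28. At 48 h the difference against 0 h was -0.17 ± 0.15 (adjusted p = 0.583). Against 24 h it was 0.57 ± 0.14 (adjusted p = 0.0900), higher in 5 of 6 batches. Without 24 h replicate 6, the highest array of its time, this last difference was 0.68 and passed (adjusted p = 0.0244). It also passed with array weights.

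Col6a2, another chain of collagen VI, passed in none of the 3 comparisons. Probe set 1452250_a_at had 5.51, 5.55, 5.94, 5.51 and 5.37 in 0 h replicates 1, 2, 3, 4 and 6. Its lowest, median and highest levels were 5.01, 5.32 and 5.49 at 24 h and 5.47, 5.61 and 5.96 at 48 h. Adjacent times overlapped at their edges. The differences were -0.29 ± 0.11 at 24 h against 0 h (adjusted p = 0.136, lower in 5 of 5 batches), 0.07 ± 0.11 at 48 h against 0 h (adjusted p = 0.786) and 0.36 ± 0.11 at 48 h against 24 h (adjusted p = 0.160, higher in 6 of 6 batches). The second probe set, 1426947_x_at, had 5.23 to 5.78 at 0 h, 5.16 to 5.50 at 24 h and 5.03 to 5.54 at 48 h, and differed by -0.07, -0.08 and -0.01 in the same order.

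Col6a1, the chain that joins the other two in each collagen VI molecule, was near or under the table's median. Probe set 1448590_at had 3.38, 3.38, 3.16, 3.45 and 3.74 in 0 h replicates 1, 2, 3, 4 and 6. It had 3.17, 3.20 and 3.47 as lowest, median and highest levels at 24 h, and 3.23, 3.46 and 3.78 at 48 h, with 3 of 17 arrays above the table's median. The times overlapped, and the differences of -0.17 ± 0.10, 0.07 ± 0.10 and 0.24 ± 0.10 had adjusted p of 0.383, 0.761 and 0.330.

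Sparc, whose product binds fibril-forming collagens and procollagen, had 3 probe sets above the table's median and none that passed. Probe set 1416589_at stood at 7.49, 7.09, 7.02, 6.82 and 6.67 in 0 h replicates 1, 2, 3, 4 and 6. The lowest, median and highest levels were 5.88, 6.65 and 6.88 at 24 h and 5.67, 6.79 and 7.15 at 48 h. Single arrays carried the low ends, 24 h replicate 5 and 48 h replicate 6, and the times overlapped. The differences were -0.43 ± 0.22 at 24 h against 0 h (adjusted p = 0.315, lower in 5 of 5 batches), -0.41 ± 0.22 at 48 h against 0 h (adjusted p = 0.319) and 0.02 ± 0.21 at 48 h against 24 h (adjusted p = 0.987). Probe set 1448392_at had 5.58 to 6.33, 5.11 to 6.30 and 5.35 to 5.86 at 0, 24 and 48 h, and 1458204_at had 4.43 to 4.88, 4.37 to 4.69 and 4.16 to 4.72. Both overlapped between times and differed by -0.21 to -0.03 over the 3 comparisons.

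Lox, which oxidises lysines so that fibrils can be crosslinked, read near or under the table's median. Probe set 1416121_at had 3.16, 2.95, 3.25, 3.08 and 3.38 in 0 h replicates 1, 2, 3, 4 and 6. Its lowest, median and highest levels were 3.05, 3.15 and 3.38 at 24 h and 3.07, 3.44 and 3.90 at 48 h. The times overlapped, and none of the differences passed (0.02 ± 0.13, 0.26 ± 0.13 and 0.24 ± 0.12, adjusted p of 0.963, 0.247 and 0.461). The other probe sets, 1448228_at at 2.17 to 2.47 and 1437903_at at 2.10 to 2.34 over all arrays, passed in no comparison.

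Chains that assemble into 1 molecule were set against each other within each array, to ask whether they moved unequally. Probe sets bind with different strengths, so the difference between 2 chains on an array is not read as a difference in amount, and only its change between times was tested. The 5 pairs and 3 comparisons gave 15 exact two-sided permutation tests over arrays, of which 5 passed after Benjamini-Hochberg adjustment over the 15. When times were exchanged only within batches, as a block, 0 of the 15 passed and 2 had an unadjusted exact p under 0.05. The smallest p of that design is 0.0625 with 5 batches and 0.0312 with 6. After adjustment over the 15 none could pass, so that count was fixed in advance. Col5a2 minus Col5a1 lay between 0.24 and 0.87 at 24 h, against -0.48 to 0.03 at 0 h, a change of 0.78 (exact p = 0.00216, adjusted 0.00812). At 48 h it lay between 1.72 and 2.74, a change of 2.54 against 0 h and of 1.76 against 24 h, each with the same exact p and adjusted p. That raw p is the smallest these permutations can give. With the second probe sets of both genes, which lay under the table median on all 17 arrays, the change at 24 h against 0 h was -0.15 (adjusted exact p = 0.218). The changes at 48 h were then 0.59 against 0 h and 0.74 against 24 h, and both passed (adjusted exact p = 0.0325 each).

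For collagen I, Col1a1 minus Col1a2 changed by -1.11 at 48 h against 24 h (exact p = 0.00216, adjusted 0.00812), and by -0.61 with the second probe sets (adjusted exact p = 0.0325). Detection cannot be judged for the Col1a1 probe set, which was above the table's median on 2 of the 17 arrays, so this change is not read as an unequal change of the transcripts. At 24 h against 0 h the pair changed by 0.50 (exact p = 0.0152, adjusted 0.0455). That call was lost without 0 h replicate 1, 2, 3 or 6 or any single 24 h array, with an adjusted exact p of up to 0.0992 and a change of 0.47 without 24 h replicate 2. With the second probe sets the change was 0.18 (adjusted exact p = 0.373). The call was also lost when the arrays were quantile-normalized again. At 48 h against 0 h the change was -0.61 (exact p = 0.0216, adjusted 0.0541), and without 48 h replicate 6 it was -0.72 and passed (adjusted exact p = 0.0238). None of the 9 tests among the collagen VI chains passed with the representing probe sets. The lowest adjusted p was 0.0742, for Col6a3 minus Col6a1 at 24 h against 0 h (change -0.57, exact p = 0.0346). With 1426947_x_at in place of the first Col6a2 probe set, Col6a3 minus Col6a2 passed at 24 h against 0 h (-0.67, adjusted exact p = 0.0455) and at 48 h against 24 h (0.58, adjusted exact p = 0.0325).

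**Figure D3:**
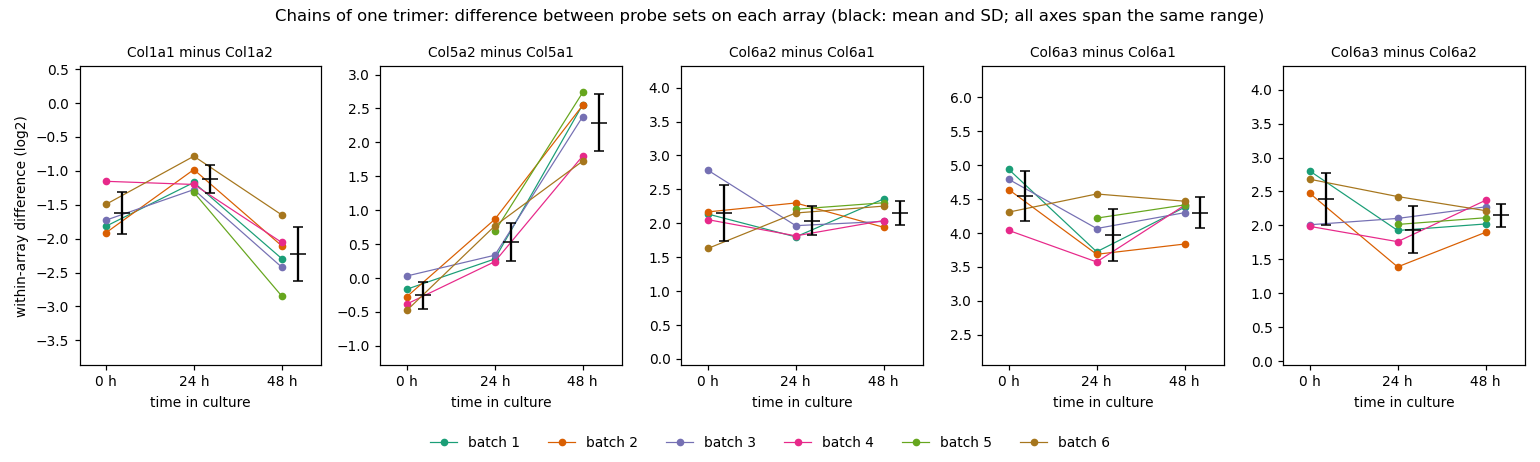
Difference in RMA level (log2, vertical axis) between 2 chains of a collagen molecule on each array against time in culture, with 1 line per batch and black marks for the mean and SD. Col5a2 minus Col5a1 separates the 3 times, Col1a1 minus Col1a2 is lowest at 48 h, and the collagen VI pairs overlap between times.

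The representing probe sets above the table's median were correlated over the 17 arrays, which share the 3 times and 6 batches. The values are a description. Col3a1 and Col1a2 had a Pearson r of 0.944, Col5a2 and Col1a2 0.792, and Col5a2 and Col3a1 0.757. Col5a2 and Col5a1 reached 0.274. Collagen VI chains Col6a3 and Col6a2 had 0.557. Col6a2 had 0.694 with Col3a1, 0.658 with Col1a2 and 0.389 with Col5a2. Col6a3 had 0.537 with Col3a1, 0.509 with Col1a2 and 0.077 with Col5a2. Sparc was at -0.0096 with Col3a1 and 0.324 with Col6a3.

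Among 11909 other genes above the table's median, the 3 most like Col3a1 over the 17 arrays were Igsf1 (r = 0.922), the lysozyme gene Lyz2 (0.909) and Bgn (0.850), which encodes the collagen-binding proteoglycan biglycan. For Col1a2 they were Igsf1 (0.940), the fatty acid transporter gene Cd36 (0.906) and Clec7a (0.895), the receptor dectin-1. Those of Col5a2 were Vim (0.928), the intermediate filament protein vimentin, Cd53 (0.926) and Pf4 (0.923). Lyz2, Cd36, Clec7a, Cd53 and Pf4 are known from macrophages or other blood cells. The genes most like Col6a3 were Zscan22 (0.855), Fkbp11 (0.846) and Gng12 (0.841), and those most like Col6a2 were Anxa1 (0.865), Lyz1 (0.811) and Nlgn2 (0.802). Col5a1 was most like Anxa4 (0.836), Cep70 (0.778) and Zfp871 (0.764), and Sparc was most like Psen2 (0.846), Mrgpre (0.804) and Nfatc2 (0.804).

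The other genes of collagen assembly, binding and turnover were counted over 7 lists. Of their 93 genes, 85 had a probe set with a single symbol and count as measured. Left out for want of one were Col6a6, Col21a1, Fkbp10, Adamts2, Adamts14, Loxl2, Fbn1 and Itga11. By the representing probe set 10, 9 and 3 of the 85 passed in the 3 comparisons, beside the 12.1%, 11.7% and 0.759% of all genes given above, and the medians over all genes were -0.010, -0.017 and -0.0019. The 6 other fibril-forming chains, Col2a1, Col5a3, Col11a1, Col11a2, Col24a1 and Col27a1, passed in 0 of 6 cases in each comparison, with list medians of 0.02, -0.03 and -0.02. At an unadjusted p under 0.05, limma gave 0, 0 and 1 of them. The 11 measured fibril-associated and beaded-filament collagens also gave 0 calls in each comparison, and 3, 2 and 3 at an unadjusted p under 0.05. With the batch as a block, Col14a1 passed at 24 h against 0 h (0.65 ± 0.21, adjusted p = 0.0604 without the block and 0.0237 with it) and Col20a1 at 48 h against 0 h (-0.27 ± 0.10, adjusted p = 0.119 without it and 0.0391 with it). Their list medians were 0.08, 0.08 and -0.05.

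Of 18 genes for modification and folding of collagen chains, 1 passed at 24 h against 0 h, P3h4, which encodes a partner of collagen lysyl hydroxylase (-0.50 ± 0.10, adjusted p = 0.00339). Without the block none passed in the other comparisons, in which limma gave 2 and 5 at an unadjusted p under 0.05, and the list medians were -0.06, 0.04 and 0.13. With the block Fkbp14, a peptidyl-prolyl isomerase of the endoplasmic reticulum, passed at 48 h against 0 h (0.47 ± 0.15, adjusted p = 0.0541 without the block and 0.0173 with it) and against 24 h (0.58 ± 0.14, adjusted p = 0.0805 without it and 0.0453 with it). Serpinh1, the collagen chaperone HSP47, differed by 0.31 ± 0.10 at 48 h against 0 h (adjusted p = 0.0716), and these 2 and the 2 collagens above were named after their values were seen. Of 9 processing and crosslinking genes, Bmp1, a procollagen C-proteinase, was lower at 24 h than at 0 h (-0.48 ± 0.10, adjusted p = 0.00329). It was the 1 call of that list, and with the block Bmp1 also passed at 48 h against 0 h (-0.31 ± 0.10, adjusted p = 0.0524 without the block and 0.0434 with it). Without the block 2 and 0 of the 9 had an unadjusted p under 0.05 in the other comparisons (list medians -0.04, -0.04 and 0.05).

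Among 20 fibril-binding matrix proteins, 3 were higher and 3 lower at 24 h against 0 h, 4 higher and 1 lower at 48 h against 0 h, and 2 higher and 1 lower at 48 h against 24 h. The list medians were -0.05, 0.05 and 0.09. Tgfbi, a matrix adhesion protein, rose most against 0 h, by 2.25 ± 0.26 at 24 h and 2.55 ± 0.26 at 48 h (adjusted p = 1.21e-05 and 3.95e-06). Postn, or periostin, rose by 0.60 ± 0.13 at 48 h against 0 h (adjusted p = 0.00685). Smoc1, a relative of SPARC, was higher by 0.61 ± 0.15 at 24 h (adjusted p = 0.0158) and 0.53 ± 0.15 at 48 h (adjusted p = 0.0391), and the later call was lost with the batch as a block (adjusted p = 0.0694) and in 7 of 17 fits without 1 array. Aspn, or asporin, was lower by -0.65 ± 0.09 at 24 h and -0.47 ± 0.09 at 48 h (adjusted p = 0.000128 and 0.00317) at levels under the table's median. Bgn was lower at 24 h than at 0 h (-0.93 ± 0.18, adjusted p = 0.00169) and higher at 48 h than at 24 h (1.25 ± 0.17, adjusted p = 0.00238), with 0.31 ± 0.18 at 48 h against 0 h (adjusted p = 0.331). The remaining calls, named after their values were seen, were Thbs1, Emilin1 and Fn1, and Postn again at 48 h against 24 h. Thbs1, or thrombospondin 1, rose by 1.35 ± 0.23 at 24 h against 0 h (adjusted p = 0.000518) and was lower at 48 h than at 24 h (-1.34 ± 0.21, adjusted p = 0.0079). Emilin1, an elastic fibre protein, was lower at 24 h than at 0 h (-0.72 ± 0.16, adjusted p = 0.00767), and at 48 h against 0 h it passed with the block alone (-0.52 ± 0.16, adjusted p = 0.0578 without it and 0.0346 with it). Fn1, or fibronectin, was higher by 0.32 ± 0.09 at 48 h against 0 h (adjusted p = 0.0293), a call lost in 4 of 17 fits without 1 array. Postn was higher by 0.64 ± 0.13 at 48 h against 24 h (adjusted p = 0.0284), lost in 6 of 17 such fits.

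Of 12 collagen receptor genes, Itga1, the alpha chain of a collagen-binding integrin, was lower at both later times than at 0 h (-0.36 ± 0.10 each, adjusted p = 0.0290 at 24 h and 0.0281 at 48 h), and was the 1 call in each. These calls were lost in 6 and 4 of 17 fits without 1 array. Of 9 collagen-degrading enzymes, 1 rose at 24 h and 3 at 48 h against 0 h. Ctsk, the collagenolytic protease cathepsin K, was higher by 0.66 ± 0.14 at 24 h (adjusted p = 0.00435) and 0.47 ± 0.14 at 48 h (adjusted p = 0.0410, lost in 7 of 17 such fits). Mmp14, a membrane-bound collagenase, was higher by 0.77 ± 0.17 at 48 h (adjusted p = 0.00602), and its 0.51 ± 0.17 at 24 h had an adjusted p of 0.0664 without the block and 0.0317 with it. Mmp13, collagenase 3, was higher by 0.72 ± 0.20 at 48 h at levels under the table's median (adjusted p = 0.0286, and 0.0603 once batch entered as a block), and lost its call in 4 of 17 such fits. At 48 h against 24 h, 0 of the receptors and 0 of the enzymes passed, and 0 and 1 had an unadjusted p under 0.05. The list medians were -0.01, 0.06 and 0.03 for the receptors and 0.14, 0.17 and 0.04 for the enzymes.

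**Figure D4:**
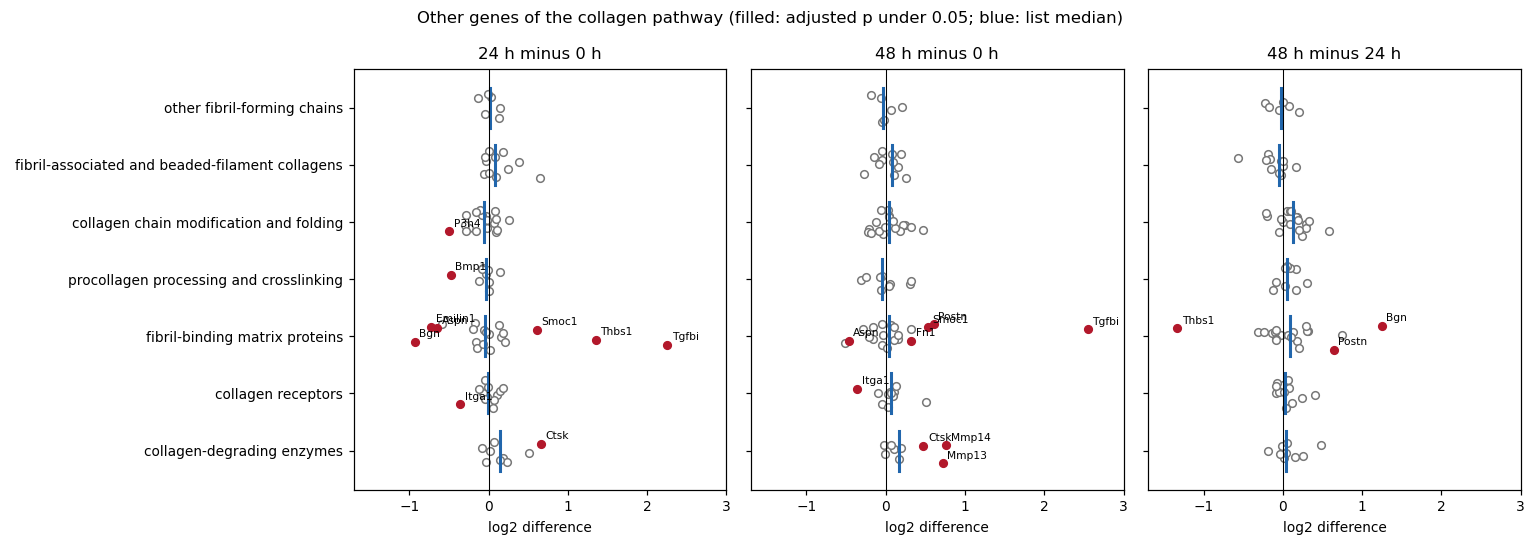
Log2 difference (horizontal axis) of the measured genes of 7 collagen pathway lists in the 3 comparisons, filled and named where the adjusted p is under 0.05, with blue bars at list medians. Most genes lie near 0, and Tgfbi is the furthest from it against 0 h.

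Markers of cells known to make or surround these collagens moved in different directions. Over the 13 fibroblast and stellate cell markers, 3 were higher and 3 lower at 24 h against 0 h, 1 higher and 3 lower at 48 h against 0 h, and 2 higher and 0 lower at 48 h against 24 h. Their summed linear level was 880 to 1007 at 0 h, 997 to 1270 at 24 h and 1057 to 1195 at 48 h. Most of that sum was Gsn, gelsolin, and without it the sums were 290.2 to 363 at 0 h, 246 to 287 at 24 h and 285 to 440 at 48 h. The mean log2 level of the 13 markers had medians of 4.53, 4.40 and 4.54 in the order of times, lowest at 24 h. Vim rose by 0.97 ± 0.16 at 24 h and 1.85 ± 0.16 at 48 h against 0 h (adjusted p = 0.000491 and 4.83e-07). Tagln, an actin-binding protein of contractile cells, was lower by -0.96 ± 0.15 and -0.79 ± 0.15 (adjusted p = 0.000314 and 0.00244). Thy1 was lower at 48 h than at 0 h (-0.65 ± 0.13, adjusted p = 0.00316). Dpt was lower by -0.41 ± 0.11 at 24 h and -0.38 ± 0.11 at 48 h (adjusted p = 0.0239 and 0.0418). These Dpt calls were lost in 4 and 11 of 17 fits without 1 array. Acta2, smooth muscle actin, was lower at 24 h than at 0 h (-1.66 ± 0.17, adjusted p = 2.17e-06) and higher at 48 h than at 24 h (1.13 ± 0.16, adjusted p = 0.00288), a gene chosen after its values were seen. With the batch as a block, Acta2 (-0.54, adjusted p = 0.0369) passed and Dpt (-0.38, 0.0611) did not at 48 h against 0 h, and Thy1 (-0.36, 0.0411) passed and Pi16 (0.30, 0.0905) did not at 24 h against 0 h. Of the defining markers, Pdgfra, Lum, Dpt, Thy1 and Pi16 were under the table's median at every time. Dcn (-0.18 ± 0.22 at 24 h and -0.05 ± 0.22 at 48 h against 0 h) and Pdgfrb (-0.06 ± 0.09 and -0.08 ± 0.09) did not pass.

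Of 7 pericyte and smooth muscle markers, 1 was higher and 2 lower at 24 h, and 1 higher and 3 lower at 48 h, each against 0 h, and their summed level was 435 to 790 at 0 h, 144 to 220 at 24 h and 158 to 263 at 48 h. Most of the 0 h sum was Rgs5, and without it the sums were 94.7 to 115 at 0 h, 110 to 145 at 24 h and 123 to 186 at 48 h. The mean log2 level had medians of 4.72, 4.29 and 4.33. Rgs5, a pericyte marker, was lower by -3.07 ± 0.24 and -3.12 ± 0.24 (adjusted p = 9.66e-08 and 7.84e-08). Notch3 was lower by -0.67 ± 0.08 and -0.54 ± 0.08 (adjusted p = 1.7e-05 and 0.000248), and Myh11 by -0.46 ± 0.11 at 48 h (adjusted p = 0.011). Kcnj8, a channel of pericytes, was the 1 marker that passed as higher, by 1.34 ± 0.17 and 1.42 ± 0.17. Its mean level was 4.48 at 0 h and 5.82 at 24 h, so the sums without Rgs5 carry its rise. Myh11 and Cnn1 were under the table's median at every time, and Notch3 at 24 h and 48 h. The 10 macrophage markers had sums of 502 to 839 at 0 h, 299 to 428 at 24 h and 442 to 617 at 48 h, with 1 higher and 5 lower at 24 h and 2 higher and 2 lower at 48 h against 0 h, and 1 higher at 48 h against 24 h. That gene was Lyz2 (1.54 ± 0.18, adjusted p = 0.000727), which was lower at 24 h than at 0 h (-0.85 ± 0.19, adjusted p = 0.00751). Lyz2 was already among the genes most like Col3a1 on these arrays, so sharing its order of times is no separate observation. Bgn and Acta2, of other lists, were also lower at 24 h than at 0 h and higher at 48 h than at 24 h. Cd68 was higher at both times (1.84 ± 0.15 and 2.16 ± 0.15) and Csf1r lower (-1.58 ± 0.14 and -1.21 ± 0.14), and Mrc1 and Cd163 were under the table's median throughout. With the batch as a block, Adgre1 did not pass at 48 h against 0 h (-0.38, adjusted p = 0.0614). The part of any of these cell types in the collagen values was not tested.

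Endothelial markers were lower, with 6 of 11 at 24 h and 8 of 11 at 48 h against 0 h, 2 of 11 at 48 h against 24 h and 0 higher in any comparison. Their sums were 1193 to 1537 at 0 h, 666 to 747 at 24 h and 403 to 571 at 48 h. At 48 h against 24 h the block exchanged 1 call, as Plvap passed (-0.69, adjusted p = 0.0371) and Egfl7 did not (-0.47, adjusted p = 0.0959). Acinar markers varied between batches, with sums of 306 to 4469 at 0 h, 111 to 2025 at 24 h and 87.6 to 603 at 48 h, and 3 of 6 were lower at 48 h than at 0 h, of which Cpa1 did not pass with the block (-2.50, adjusted p = 0.0661). Of 4 duct markers 1, Krt7, was higher at 24 h and 48 h than at 0 h (1.19 and 0.87), and with the block Krt19 passed at 48 h against 0 h (-1.17, adjusted p = 0.0491). Of 5 measured Schwann cell markers 0 passed, with 1, 0 and 2 at an unadjusted p under 0.05 in the 3 comparisons, and 3 of them, S100b, Gfap and Cdh19, were under the table's median throughout. Some islet hormone transcripts were at the top of the scale at every time, with Ins2 at means of 13.76, 13.73 and 13.69, Iapp at 13.02, 13.10 and 13.00 and Gcg at 12.81, 12.77 and 12.66 at 0, 24 and 48 h. Ins2 lay close to the highest value of all arrays, 13.81, so its steady level shows little. Of 8 endocrine markers 4 were lower at 24 h and 2 at 48 h against 0 h, where Ppy also passed with the block (-1.14, adjusted p = 0.00944). Those called as lower against 0 h included Sst, Slc2a2, Ppy and Pdx1. The mean log2 level of the 8 markers had medians of 11.92, 11.43 and 11.49 at 0, 24 and 48 h. Markers named for a call that the block changed were chosen after their values were seen, with the difference given from the fit without the block and the p from the fit with it. The housekeeping genes Actb and Hprt did not pass (Actb -0.29 at 24 h against 0 h, adjusted p = 0.180).

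**Figure D5:**
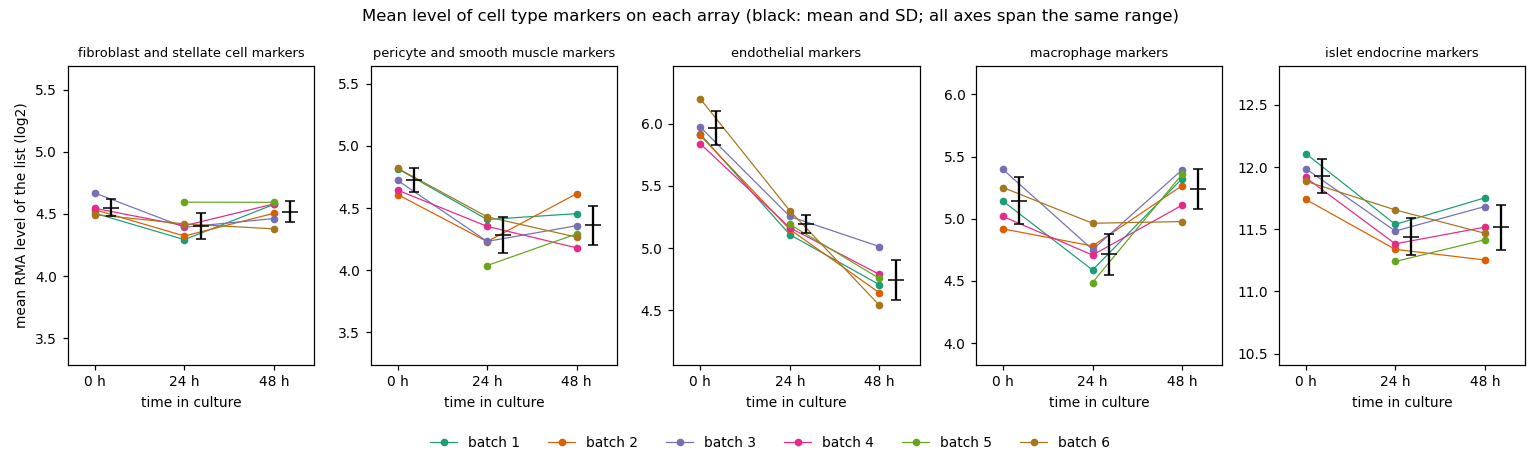
Mean RMA level (log2, vertical axis) of the measured genes of 5 marker lists on each array against time in culture, with 1 line per batch and black marks for the mean and SD. Endothelial markers are lower at each later time, macrophage markers are lowest at 24 h in every batch, and fibroblast and stellate cell markers overlap between times.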

How the data were processed

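Total RNA of 17 islet samples was amplified, labelled with biotin and hybridised to 1-colour Affymetrix GeneChip mouse arrays, 1 per sample, per the study's design text. The authors made the deposited log2 values with RMA (submitters' processing notes). The RMA version was not given in the sources used here, and the log base was inferred from the range of 1.55 to 13.81. After removal of 64 controls from 45101 probe sets, 45037 were kept. The number of arrays limits the precision.

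Groups and batches came from the labels and the design text. limma (version 3.58.1, R 4.3.3) fitted 1 mean per time to all 17 arrays (lmFit, eBayes), with Benjamini-Hochberg adjustment over 45037 probe sets and a threshold of 0.05. No filter on level was set. Fold changes are 2 to the power of the log2 difference. Pairs of chains were tested by exact permutation. The fit was tested on simulated data. The pairing by batch comes from the design text. Over 16 pairs of arrays of a batch, the deviations from the means of their times correlated at a median of 0.00545 (range -0.159 to 0.274), against -0.00978 for 80 pairs of different batches. Blocked values stand beside results whose call they change.

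Named genes are all member probe sets, up to 4 of each list by absolute difference, and the 3 genes most like each member. Lists held 93 pathway and 75 marker genes, and Dcn, Lum and Cspg4 were in a list of each kind. The members and lists were chosen with earlier results of these data known. As alternatives, batch entered as a block (fixed or random), each array was left out, batch 5 was dropped, arrays were weighted, centred or quantile-normalized again, dim probe sets were filtered, the variance prior was changed, and fits used the 2 times alone or other probe sets.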

Additional observations from a re-analysis of the deposited data

Results flagged for a closer look

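Of 66 groups of arrays checked, 22 probe sets at 3 times, 5 had 1 array far from the others of its time by Dixon's ratio, and chance alone flags about 1 group in 20. Sparc probe set 1416589_at read 5.88 on 24 h replicate 5, where the other 24 h arrays had 6.64 to 6.88. Sparc probe set 1448392_at read 5.35 on 48 h replicate 6, and the other 48 h arrays had 5.72 to 5.86. Col6a1 probe set 1448590_at stood at 3.47 on 24 h replicate 4, above the 3.17 to 3.25 of the others. Col6a2 probe set 1426947_x_at stood at 5.78 on 0 h replicate 3, above the 5.23 to 5.29 of the others. Col1a1 probe set 1423669_at, under the median of the table throughout, read 2.93 on 24 h replicate 5, and the others had 2.56 to 2.67. The arrays 0 h replicate 3 and 24 h replicate 5, are those with the lowest correlation to the other arrays of their time.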

How the results depend on the processing

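Over the single results and their alternatives, of which leaving out 0 h replicate 3 and 24 h replicate 5 together was chosen after seeing the data, 1994 of 2046 stayed on their side of the threshold, 36 lost a call, 15 gained one, and 1 called result reversed. Of the 1994, 1929 kept their sign and 65, past the test under neither setting, changed it. The reversal was Col5a2 minus Col5a1 at 24 h against 0 h, at -0.15 with the second probe sets. With a filter on level, which leaves 10 member probe sets to test, 3 instead of 8 passed at 48 h against 0 h and 3 instead of 5 at 48 h against 24 h. With the median over the probe sets of a gene, 6 instead of 10 pathway genes passed at 24 h against 0 h. Leaving out each array in turn gave 3 to 4, 6 to 8 and 4 to 6 member probe sets in the 3 comparisons, and 4 to 6 of the 15 chain tests.

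With the batch as a replicate block, the fixed-term fit gave Col3a1 1427883_a_at an adjusted p of 0.00613 at 24 h against 0 h. The block changed the call of 1 member probe set, 1423110_at of Col1a2 at 48 h against 0 h (0.50, adjusted p = 0.0566). When times were permuted only within batches, 0 of 15 chain tests passed by the exact permutation test and 2 had an unadjusted p under 0.05. With 5 batches these permutations cannot give a p under 0.0625, and with 6 not under 0.0312. After adjustment over the 15 none could pass, so the 0 was fixed in advance. Levels near or under the table's median had no detection call, which limits what 12 of the 22 member probe sets can show.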
